A study of Oryza sativa with 18 samples.

Results

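Rice carries a large set of genes for small redox proteins, and 118 of the 39049 genes in the deposited expression table have a description that holds the word thioredoxin, glutaredoxin or peroxiredoxin. Those 118 genes, picked by a rule that reads the text alone but was itself set with earlier results of these data known, are the subject here. The table takes its gene descriptions and symbols from the closest Arabidopsis gene, so each role given below is known from that species or from plants in general. Expression was measured by RNA sequencing in leaves at the tillering stage of 3 genotypes: HHZ, the drought-sensitive recurrent parent, P28, the drought-tolerant donor, and H471, a drought-tolerant introgression line from their cross that carries P28 segments in an HHZ background. Each genotype was sampled as a well-watered control (ck), after 1 day of drought (1d), when soil water was 15%, and after 3 days (3d), when it was 10%. The 18 libraries, 2 for each genotype and condition, are pooled by the authors into 9 columns of FPKM (fragments per kilobase of transcript, scaled to the mapped fragments of the library), so each level given below is the authors' pooled value without a standard deviation. H471 is a single introgression line, and the plants were grown in pots in a greenhouse.

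Thioredoxins are small proteins with a pair of cysteines that reduce disulfide bonds in other proteins. They receive electrons from ferredoxin in the light through ferredoxin-thioredoxin reductase, or from NADPH through NADPH-thioredoxin reductases. In the chloroplast the F, M, X, Y and Z types regulate enzymes of carbon fixation and reduce antioxidant enzymes, while H types act mainly in the cytosol and the O type in mitochondria. Glutaredoxins do related work with electrons from glutathione, and peroxiredoxins are peroxidases that remove hydrogen peroxide and are in turn reduced by thioredoxins.

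The 118 members were sorted by their description into 7 thioredoxin reductases, 7 peroxiredoxins, 35 glutaredoxins, 24 thioredoxins of a named type and 45 thioredoxin family members without a type. For 10 of them the symbol rather than the description gave the class, among them PRX Q (LOC_Os06g09610). The last class is mixed and includes proteins that share the fold but have other jobs, such as the splicing factor YLS8 and the disulfide isomerase PDI11. In 1 or more columns 93 members reached an FPKM of 1, and these entered the tests: 6 reductases, 6 peroxiredoxins, 21 glutaredoxins, 23 typed thioredoxins and 37 without a type. Of the other 25 members, 11 were listed at 0 in all 9 columns and 14 stayed under an FPKM of 1. The glutaredoxin class held 14 of these 25, among them the 3 matches to ROXY2, a glutaredoxin of flower development in Arabidopsis: LOC_Os02g30850 and LOC_Os07g05630 were listed at 0 in each column, and LOC_Os04g32300 reached 0.516 in H471 1d only.

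The leaf label was checked against marker genes. Rubisco small subunit and light-harvesting genes summed to 2431 to 16411 FPKM per column, although 1 of the 5 (LOC_Os01g52240) was listed at 0. Of the root markers RCc3 was listed at 0 and Lsi1 lay between 7.47 and 18.8, and the meristem gene OSH1 did not exceed 0.0636. The glutelins, which mark seeds, stayed under 5 FPKM except in HHZ 1d, where they reached 21.3 and 31.6. The columns summed to 816186 to 984323 FPKM, and the number of reads behind a value is not given in the table.

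The members together made up about 1% of the summed leaf expression, with a share that was higher after 1 day and lower after 3 days in each genotype. Their share of the summed FPKM was 0.902%, 0.944% and 0.879% in the HHZ, P28 and H471 controls, 1.04%, 1.08% and 1.02% after 1 day, and 0.772%, 0.792% and 0.746% after 3 days. The 3 conditions did not overlap. More than any other member, the cytosolic thioredoxin H-type 1 (LOC_Os07g08840) filled this share: it was the most abundant member in each column and took 24.1% to 27.7% of the members' sum. Its FPKM was 2101, 2019 and 1804 in the controls, 2417, 2687 and 2330 after 1 day, and 1588, 1863 and 1666 after 3 days. The level was higher after 1 day than in the control in each genotype, but the fitted log2 difference of 0.33 (SE 0.13) missed the threshold (limma, adjusted p = 0.074), which it passed without the trend (adjusted p = 0.0206). The fall from 1 day to 3 days was called (-0.54, SE 0.13, adjusted p = 0.0142), though that call was lost when any genotype was left out (adjusted p = 0.103 to 0.121). The next most abundant member, the chloroplast thioredoxin LOC_Os12g08730 (symbol ATHM2), rose from 506, 522 and 584 FPKM in the controls to 901, 884 and 841 after 1 day (0.71, SE 0.10, adjusted p = 0.000926) and stood at 573, 517 and 594 after 3 days (adjusted p = 0.62).

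**Figure D1:**
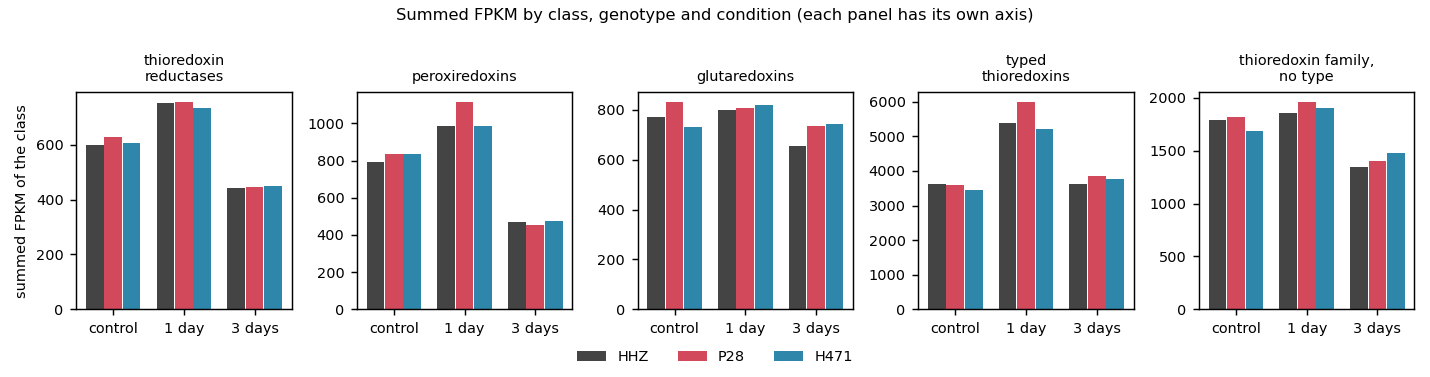
Summed FPKM (vertical axes, each panel with its own scale from 0) of the 5 member classes in control, 1-day and 3-day columns, with 1 bar per genotype. Peroxiredoxins summed to 795 to 836 FPKM in the controls, 987 to 1113 after 1 day and 456 to 477 after 3 days, and typed thioredoxins to 3439 to 3634, 5215 to 5984 and 3617 to 3861.

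The classes differed in how their sums moved. Reductases summed to 597 to 628 FPKM in the controls, 733 to 754 after 1 day and 442 to 448 after 3 days, and peroxiredoxins followed the same order with control values in between. Typed thioredoxins were high after 1 day and near their control sum after 3 days. Glutaredoxin sums overlapped between conditions, with 732 to 830 in the controls, 797 to 818 after 1 day and 653 to 742 after 3 days. These sums are descriptions and carry no test.

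The response to drought was tested across the genotypes. limma was fitted to log2(FPKM + 1) of all 20568 genes that reached an FPKM of 1, with terms for genotype and condition and 4 residual degrees of freedom, and a gene was called at a Benjamini-Hochberg adjusted p under 0.05. The 3 genotypes thereby serve as replicates of the drought response, so the p-values measure the spread between genotypes and not between plants. H471 has an HHZ background, so these 2 genotypes are not independent replicates. After 1 day 34 of the 93 members were higher than in the control (36.6%, beside 27.4% of all genes tested) and 21 were lower (22.6%, beside 30.8%). The median difference was 0.12 over the members and -0.02 over all genes. After 3 days 29 members were higher (31.2%, beside 27.0%) and 28 lower (30.1%, beside 30.1%), with medians of -0.01 and -0.03. Between 1 day and 3 days 37 members fell (39.8%, beside 24.4%) and 23 rose (24.7%, beside 25.3%). In total 55 members were called after 1 day, 57 after 3 days and 60 between the days, against 58.3%, 57.2% and 49.7% of all genes. By shape, 15 members were called higher on both days (16.1%, beside 15.2% of all genes), 14 lower on both days (15.1%, beside 19.4%), 8 higher and then lower (8.60%, beside 3.65%), and 2 lower and then higher (2.15%, beside 2.61%), while 20 were called on neither day (21.5%, beside 25.4%). The 3 drought values lay above all 3 control values in 37 members after 1 day (29.9% of all genes did so) and below them in 25 (32.6%), and after 3 days in 32 (28.9%) and 33 (31.8%). LOC_Os07g44430, LOC_Os01g42960, LOC_Os05g11990, LOC_Os05g50990 and LOC_Os06g12190 reached an FPKM of 1 only in drought columns. They entered all these counts through the groups in which they were high, so a rise of theirs is no separate evidence.

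**Figure D2:**
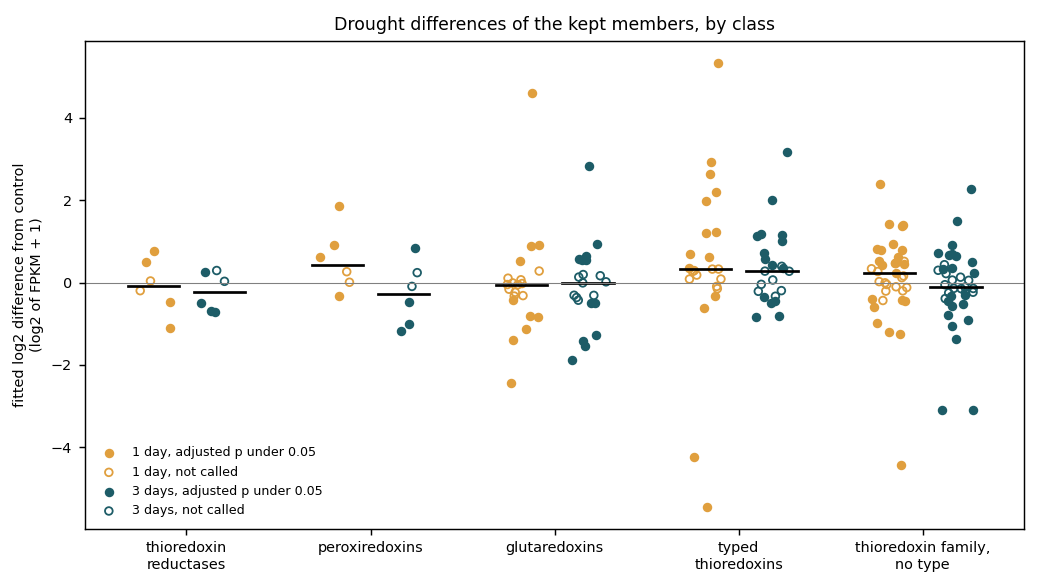
Fitted log2 differences from the control (vertical axis, log2 of FPKM + 1) of the 93 members that were tested, by class, after 1 day (orange) and 3 days (dark blue). Filled points passed an adjusted p of 0.05, open points did not, and bars are medians: the peroxiredoxin median moves from 0.44 after 1 day to -0.28 after 3 days, and the widest differences, from -5.44 to 5.33, are those of typed thioredoxins.

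The 1-day samples also differed from the controls in genes of the circadian clock. No source used here states the time of day at harvest. LHY (LOC_Os08g06110), a morning gene, went from 1.49, 1.53 and 2.08 FPKM to 389, 426 and 353 after 1 day and 14.2, 17.3 and 10.6 after 3 days. The evening gene LUX (LOC_Os01g74020) went from 493, 560 and 509 to 1.20, 1.59 and 1.07 and then to 84.0, 90.4 and 102. All 9 clock genes examined were called after 1 day and 7 after 3 days. An hour of the day that differed between harvests cannot be told apart from drought here, and its part in the member values below was not tested.

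Among the enzymes that supply electrons, 2 of 6 rose and 2 fell after 1 day (beside 27.4% and 30.8% of all genes), and 1 rose and 3 fell after 3 days (beside 27.0% and 30.1%). The catalytic chain of ferredoxin-thioredoxin reductase (LOC_Os09g07570), which passes electrons from ferredoxin to chloroplast thioredoxins, had 209, 228 and 198 FPKM in the controls, 223, 223 and 206 after 1 day and 126, 121 and 135 after 3 days. The 1-day difference was not called (0.04, SE 0.09, adjusted p = 0.716), and the level fell after 3 days (-0.72, SE 0.09, adjusted p = 0.000417). Its partner, the variable chain LOC_Os02g42570, went from 214, 203 and 234 FPKM to 368, 369 and 374 after 1 day and 151, 163 and 148 after 3 days. This subunit rose and then fell below the control without overlap between conditions (0.77, SE 0.08, adjusted p = 0.000245, and -0.49, SE 0.08, adjusted p = 0.00237). The other variable chain, LOC_Os04g44650, was far less abundant, at 9.92 to 16.6 FPKM, and was called on neither day, although its 3-day difference of 0.29 passed with median-ratio scaling (0.32, adjusted p = 0.0345).

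The cytosolic and mitochondrial enzyme NADPH-thioredoxin reductase A had 3 matches. LOC_Os02g48290 had 68.6, 90.4 and 65.7 FPKM in the controls, 35.5, 31.2 and 35.0 after 1 day and 43.2, 51.6 and 43.4 after 3 days. Each drought value lay below each control value, and both differences were called (-1.11, SE 0.12, adjusted p = 0.00028, and -0.68, SE 0.12, adjusted p = 0.00318). LOC_Os06g22140 went from 25.7, 29.3 and 29.3 FPKM to 18.8, 20.1 and 21.5 after 1 day (-0.46, SE 0.09, adjusted p = 0.00366) and 30.9, 30.5 and 40.4 after 3 days. Its rise after 3 days (0.26, adjusted p = 0.0432) was lost in 6 of 9 alternatives, among them those without HHZ (adjusted p = 0.189) and without H471 (adjusted p = 0.228). LOC_Os04g44260 was listed at 0 except for 0.157 in the H471 control. NTRC (LOC_Os07g46410), a chloroplast protein that joins a reductase to its own thioredoxin and reduces 2-Cys peroxiredoxins, went from 68.8, 64.8 and 64.9 FPKM to 95.0, 98.7 and 86.5 after 1 day (0.49, SE 0.07, adjusted p = 0.00115) and back to 73.7, 63.7 and 65.8 after 3 days (adjusted p = 0.745).

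Most peroxiredoxins were lower after 3 days than after 1 day: 5 of the 6 tested were called lower, beside 24.4% of all genes, and 0 higher, beside 25.3%. Of these calls that of LOC_Os04g33970 was lost without HHZ (adjusted p = 0.0806), without P28 (adjusted p = 0.0712) and without H471 (adjusted p = 0.0909), and that of LOC_Os07g44430 without HHZ (adjusted p = 0.0625). Against the control 3 rose and 1 fell after 1 day (beside 27.4% and 30.8%), and 1 rose and 3 fell after 3 days (beside 27.0% and 30.1%). The rises on both days and the falls between the days include LOC_Os07g44430, which passed the filter through drought columns alone. The chloroplast 2-Cys peroxiredoxin B (LOC_Os02g33450) had 287, 300 and 309 FPKM in the controls, 256, 254 and 209 after 1 day and 131, 129 and 131 after 3 days. It declined in steps that did not overlap. The difference after 3 days was -1.19 (SE 0.09, adjusted p = 7.13e-05). The smaller one after 1 day (-0.32, SE 0.09, adjusted p = 0.0231) lost its call without HHZ (adjusted p = 0.0596), without P28 (adjusted p = 0.0839) and without H471 (adjusted p = 0.118). The other match to 2-Cys peroxiredoxin B, LOC_Os04g33970, was a minor form, at 4.80, 5.46 and 5.06 FPKM in the controls, 8.58, 8.18 and 8.18 after 1 day and 6.49, 6.04 and 6.12 after 3 days. It rose after 1 day (0.61, SE 0.09, adjusted p = 0.00114), and its 3-day difference of 0.24 was not called (adjusted p = 0.0588) but passed with median-ratio scaling (adjusted p = 0.0421) and without the trend (adjusted p = 0.047).

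PRX Q (LOC_Os06g09610), another chloroplast peroxiredoxin, had 214, 263 and 267 FPKM in the controls, 278, 303 and 309 after 1 day and 137, 86.5 and 156 after 3 days. It fell after 3 days (-1.0, SE 0.19, adjusted p = 0.00377), with the lowest value in P28. Thioredoxin-dependent peroxidase 2 (LOC_Os01g48420), a cytosolic type II peroxiredoxin, went from 254, 237 and 223 FPKM to 413, 506 and 428 after 1 day and 162, 203 and 155 after 3 days. The 3 conditions did not overlap, with a rise after 1 day (0.91, SE 0.10, adjusted p = 0.000266) and a fall after 3 days (-0.46, SE 0.10, adjusted p = 0.00689) whose call was lost without HHZ (adjusted p = 0.0632) and without H471 (adjusted p = 0.0756). The mitochondrial peroxiredoxin IIF (LOC_Os01g16152) stayed between 27.5 and 40.7 FPKM and was called in no drought comparison. The 1-Cys peroxiredoxin LOC_Os07g44430, of a kind best known from seeds, was listed at 0 in the 3 controls and at 2.91, 1.43 and 3.95 FPKM after 1 day and 1.03, 0.459 and 0.936 after 3 days. It was called after 1 day (1.85 on the log2(FPKM + 1) scale, adjusted p = 0.00029) and after 3 days (0.84, adjusted p = 0.0123), where the call was lost without HHZ (adjusted p = 0.115). The size of these fitted differences depends on the added 1, and they are no bound on the fold. The gene reached an FPKM of 1 only in drought columns. It thus entered the tests through the groups in which it was high, and its calls are no separate evidence of a rise. The gene next to it by locus number, LOC_Os07g44440, has the same description and reached no more than 0.514 FPKM, and reads could be split between such neighbours. The seed glutelins had 21.3 and 31.6 FPKM in HHZ 1d and under 5 in the other columns, and their part in these values was not tested.

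**Figure D3:**
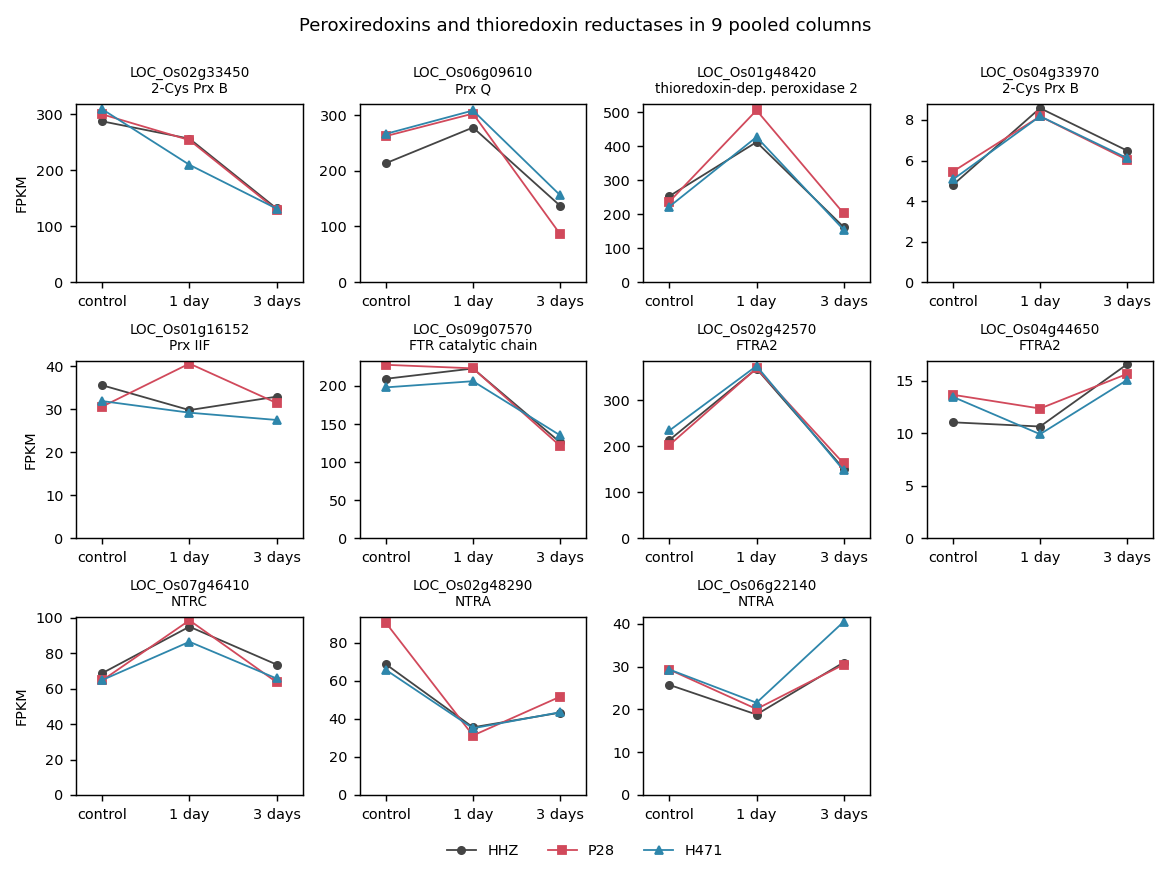
FPKM (linear axes from 0) of 5 peroxiredoxins and 6 thioredoxin reductases in control, 1-day and 3-day columns, with 1 line per genotype. The 3-day values of LOC_Os02g33450 meet at 129 to 131 FPKM, and LOC_Os02g42570 and LOC_Os01g48420 peak after 1 day in all 3 genotypes.

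The widest drought differences of all members belonged to typed thioredoxins, of which 23 were tested. After 1 day 10 rose and 4 fell (beside 27.4% and 30.8% of all genes), and after 3 days 10 rose and 5 fell (beside 27.0% and 30.1%). LOC_Os04g44830, a match to the chloroplast thioredoxin M-type 4, had 4.66, 4.75 and 3.23 FPKM in the controls, 193, 234 and 197 after 1 day and 49.9, 42.0 and 45.6 after 3 days. Each genotype showed the same peak, and the level was still above the control after 3 days (5.33, SE 0.13, adjusted p = 6.38e-07, and 3.18, SE 0.13, adjusted p = 5.58e-06). The other match to the same Arabidopsis gene, LOC_Os02g42700, ranged only from 32.0 to 75.4 FPKM (0.37, adjusted p = 0.0181, and 0.57, adjusted p = 0.00273), and its 1-day call was lost without P28 (adjusted p = 0.0604) and without H471 (adjusted p = 0.142). Thioredoxin F2 (LOC_Os01g68480), a light-dependent activator of carbon fixation enzymes, went from 30.5, 27.1 and 26.3 FPKM to 184, 201 and 156 and then to 50.5, 75.6 and 70.0. It was called on both days (2.64, SE 0.15, adjusted p = 1.36e-05, and 1.18, SE 0.15, adjusted p = 0.000683).

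Members that match the same atypical thioredoxin, ACHT4, a chloroplast protein with an unusual active site, went opposite ways. LOC_Os03g21000 had 117, 114 and 95.5 FPKM in the controls, 752, 987 and 761 after 1 day and 256, 297 and 193 after 3 days. It was thereby among the 8 most abundant members, and it rose on both days (2.92, SE 0.11, adjusted p = 2.56e-06, and 1.17, SE 0.11, adjusted p = 0.000176). LOC_Os07g48510 had 80.4, 88.3 and 80.2 FPKM in the controls, 3.35, 2.87 and 4.26 after 1 day and 187, 170 and 153 after 3 days. It fell after 1 day (-4.23, SE 0.13, adjusted p = 1.24e-06) and was above the control after 3 days (1.02, SE 0.13, adjusted p = 0.000665). The third match, LOC_Os03g07226, stayed between 2.26 and 3.67 FPKM.

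The deepest fall was that of WCRKC thioredoxin 1 (LOC_Os02g53400), a chloroplast thioredoxin named after its active-site letters. It had 179, 171 and 234 FPKM in the controls, 3.91, 3.96 and 2.69 after 1 day and 211, 218 and 279 after 3 days. The level after 1 day was far below both other conditions in each genotype (-5.44, SE 0.18, adjusted p = 1.49e-06), and the 3-day level was not called against the control (0.28, SE 0.18, adjusted p = 0.224), although it was without the H471 columns (adjusted p = 0.0421) and without the 1-day columns (adjusted p = 0.0341). LUX and another evening gene of the clock, PRR1 (LOC_Os02g40510), were also low after 1 day and higher after 3 days, with PRR1 at 78.6, 86.6 and 77.0 FPKM, then 3.64, 5.86 and 3.59, then 96.9, 104 and 94.8. Unlike PRR1, LUX was still below its control after 3 days (-2.49, limma, adjusted p = 5.56e-06). The related WCRKC thioredoxin 2 (LOC_Os02g57380) moved from 12.8 to 16.2 FPKM in the controls to 8.06 to 9.58 after 1 day and 8.20 to 12.1 after 3 days, and it was called lower on both days.

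The remaining typed thioredoxins moved less. Thioredoxin X (LOC_Os04g57930), a chloroplast type that reduces peroxiredoxins, went from 71.9, 66.1 and 76.0 FPKM to 156, 160 and 178 and then to 34.2, 44.1 and 43.6. It was called higher after 1 day (1.20, SE 0.10, adjusted p = 5.6e-05) and lower after 3 days (-0.80, SE 0.10, adjusted p = 0.000419). Thioredoxin z (LOC_Os08g29110), a plastid type tied to plastid gene expression, had 51.5 to 56.1 FPKM in the controls, 45.6 to 54.0 after 1 day and 72.4 to 102 after 3 days, and rose only in the later comparison (0.72, SE 0.12, adjusted p = 0.00215). HCF164 (LOC_Os03g55820), a thylakoid thioredoxin-like protein of cytochrome assembly, moved from 153 to 158 FPKM to 184 to 203 and 171 to 238, called after 3 days (0.36, adjusted p = 0.038). Thioredoxin Y1 (LOC_Os01g73234) and ACHT2 (LOC_Os05g11090) were lower after 3 days (-0.34 and -0.84). ACHT2 had 38.5, 46.0 and 41.5 FPKM in the controls and already lay below them after 1 day, at 33.6, 35.6 and 31.3. The mitochondrial thioredoxin O1 (LOC_Os06g45510) was called on neither day at 28.2 to 36.4 FPKM. Thioredoxin M3 (LOC_Os04g36640) was weakly expressed, at 1.04 to 3.33 FPKM. These members, like thioredoxin X, lie outside the rule for named genes and were named with their values known. The same holds for LOC_Os02g42700, LOC_Os03g07226 and WCRKC thioredoxin 2 above, and for LOC_Os03g58630, LOC_Os09g38670 and the H9 and H5 matches below.

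The H types were called in both directions. LOC_Os07g09310, a match to thioredoxin H2, had 5.91, 4.06 and 4.13 FPKM in the controls, 26.5, 26.7 and 21.9 after 1 day and 29.5, 16.2 and 20.6 after 3 days, and was the only one of its 3 matches to stay high (2.20, SE 0.15, adjusted p = 2.71e-05, and 1.99, SE 0.15, adjusted p = 5.71e-05). LOC_Os03g58630, the second match, went from 46.2 to 56.7 FPKM to 76.3 to 82.8 after 1 day and 39.2 to 55.2 after 3 days, and LOC_Os09g38670, the third, was called on neither day. Of the H9 matches LOC_Os05g07690 rose from 32.3, 37.1 and 31.5 FPKM to 127, 144 and 134 after 1 day (1.98, SE 0.07, adjusted p = 1.68e-06). After 3 days it stood at 45.5, 46.2 and 44.4 FPKM, still above each control value. LOC_Os01g07376 rose on both days (1.22 and 1.13), and LOC_Os05g40190 was lower after 3 days (-0.49). Thioredoxin H5 (LOC_Os12g18220) was the only typed member listed at 0 throughout.

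**Figure D4:**
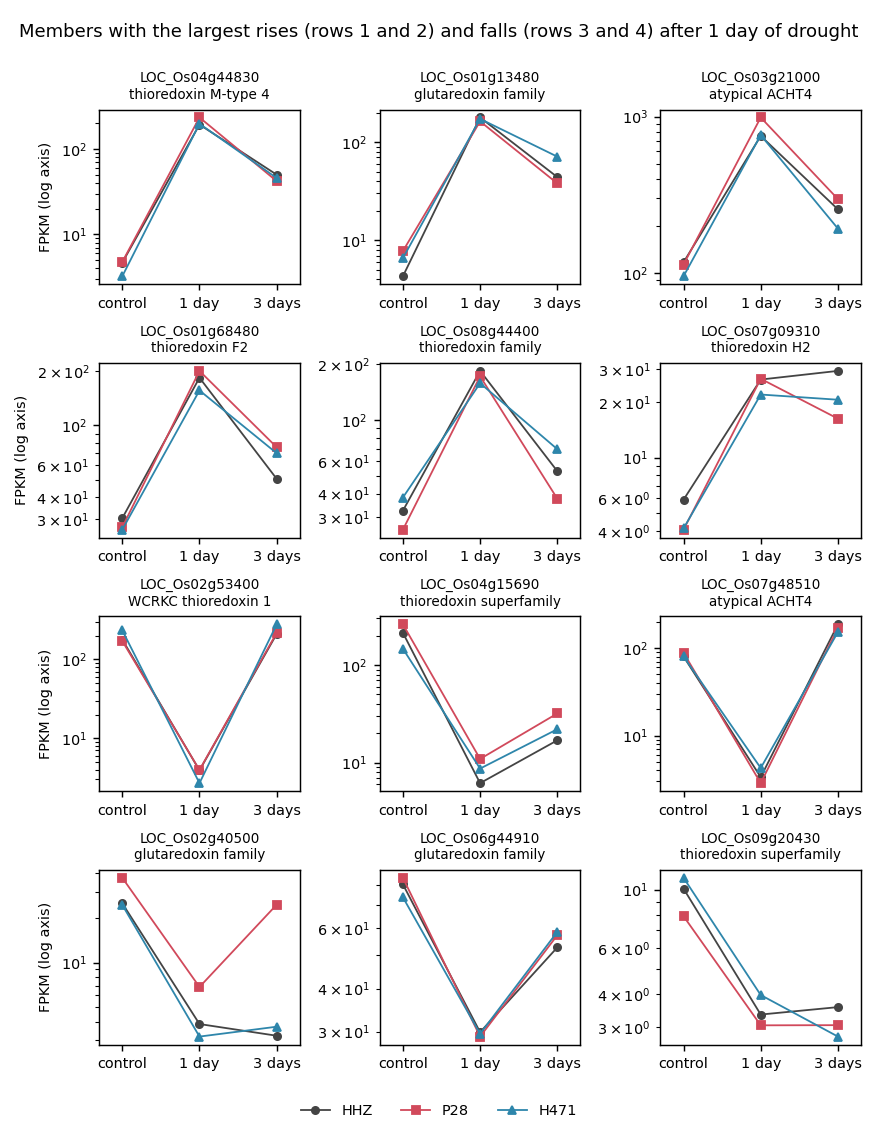
FPKM (log axes, each panel with its own scale) in control, 1-day and 3-day columns of the 6 members with the largest and the 6 with the smallest fitted difference after 1 day of drought, with 1 line per genotype. LOC_Os02g53400 and LOC_Os07g48510 drop to under 5 FPKM after 1 day and return to 153 FPKM or more after 3 days, while LOC_Os04g44830 climbs from under 5 to 193 to 234.

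Glutaredoxins were called in both directions: 4 of the 21 tested rose and 6 fell after 1 day (beside 27.4% and 30.8% of all genes), and 6 rose and 6 fell after 3 days (beside 27.0% and 30.1%). Among the 21, LOC_Os06g12190 passed the filter through 3-day columns alone, the groups in which it was high. LOC_Os01g13480, described only as a glutaredoxin family protein, had 4.30, 7.77 and 6.58 FPKM in the controls, 178, 163 and 172 after 1 day and 44.0, 38.0 and 71.1 after 3 days. It was the second largest rise of all members after 1 day (4.60, SE 0.23, adjusted p = 6.5e-06) and was still above the control after 3 days (2.83, SE 0.23, adjusted p = 7.26e-05). LOC_Os02g40500 fell from 25.1, 37.3 and 24.5 FPKM to 3.85, 6.84 and 3.17 after 1 day (-2.44, SE 0.39, adjusted p = 0.0016). After 3 days it was at 3.21 in HHZ and 3.69 in H471 but at 24.6 in P28, so the called difference of -1.89 (SE 0.39, adjusted p = 0.00581) covers unequal genotypes: it was -2.54 without P28 and lost its call without HHZ (-1.51, adjusted p = 0.0801) and without H471 (-1.61, adjusted p = 0.0915). Its locus number is next to that of the clock gene PRR1, which was low after 1 day but not after 3 days.

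The most abundant glutaredoxin, LOC_Os04g42930, had 302, 317 and 271 FPKM in the controls, 222, 230 and 213 after 1 day and 184, 232 and 218 after 3 days. It was lower on both days without overlap (-0.42, SE 0.09, adjusted p = 0.00746, and -0.49, SE 0.09, adjusted p = 0.0039), with the 1-day call lost without P28 (adjusted p = 0.0708). LOC_Os06g44910 went from 80.2, 83.8 and 73.6 FPKM to 29.9, 29.0 and 29.6 and part of the way back to 52.6, 57.1 and 58.4 (-1.39, SE 0.08, adjusted p = 1.02e-05, and -0.49, SE 0.08, adjusted p = 0.00152). LOC_Os05g48930, a match to GRX480, a glutaredoxin that binds TGA transcription factors in Arabidopsis, went from 27.0, 25.5 and 22.8 FPKM to 12.6, 12.3 and 16.4 and then 6.41, 9.34 and 8.21 (-0.83 after 1 day, SE 0.16, adjusted p = 0.00325, and -1.55 after 3 days, SE 0.16, adjusted p = 0.000199). Its call between the days (-0.72, adjusted p = 0.00793) was lost without HHZ (adjusted p = 0.0643) and without H471 (adjusted p = 0.0624). LOC_Os10g34170, described as glutaredoxin-related, went from 7.39, 13.2 and 9.07 FPKM to 3.50 to 4.19 and 2.71 to 3.62 (-1.41 after 3 days, SE 0.14, adjusted p = 0.00019), and its 1-day and 3-day values overlapped (-0.28 between the days, adjusted p = 0.137). Glutaredoxin 4 has 2 matches, and they were called on different days: LOC_Os01g34620 was higher after 1 day (0.53, SE 0.10, adjusted p = 0.00415), and LOC_Os01g07950, named after its values were seen, was higher after 3 days (0.56, adjusted p = 0.0014).

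The 37 thioredoxin family members without a type gave 15 rises and 8 falls after 1 day (beside 27.4% and 30.8% of all genes), and 11 of each after 3 days (beside 27.0% and 30.1%). Among the 37, LOC_Os01g42960, LOC_Os05g11990 and LOC_Os05g50990 passed the filter through drought columns alone, the groups in which they were high. LOC_Os08g44400 had 32.4, 25.6 and 38.1 FPKM in the controls, 184, 172 and 158 after 1 day and 52.9, 37.6 and 69.5 after 3 days. It rose after 1 day (2.40, SE 0.17, adjusted p = 3.19e-05), and the 3-day call (0.69, adjusted p = 0.0113) was lost without HHZ (adjusted p = 0.106). LOC_Os05g10930 rose and stayed, from 12.5, 9.66 and 11.2 FPKM to 33.3, 23.9 and 39.7 and then 30.9, 25.8 and 44.0 (1.43 and 1.48, SE 0.13, adjusted p = 0.000108 and 0.000112). LOC_Os04g15690 was among the abundant members of the class in the controls, at 214, 261 and 147 FPKM, and was at 6.16, 10.9 and 8.69 after 1 day and 16.9, 31.9 and 22.0 after 3 days. It therefore stayed low (-4.43, SE 0.18, adjusted p = 3.09e-06, and -3.09, SE 0.18, adjusted p = 2.13e-05).

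Other falls in this class came late or on both days. LOC_Os02g09940 had 60.5, 71.8 and 74.1 FPKM in the controls and 82.9, 110 and 71.9 after 1 day, which was not called (0.34, adjusted p = 0.0833) except without H471 (0.53, adjusted p = 0.0496), and 5.55, 10.1 and 6.49 after 3 days. Its fall after 3 days had the same fitted size as that of LOC_Os04g15690 (-3.09, SE 0.14, adjusted p = 9.2e-06). LOC_Os09g20430 fell from 10.1, 7.92 and 11.1 FPKM to 3.05 to 3.98 after 1 day and 2.76 to 3.58 after 3 days (-1.26 and -1.37, SE 0.13, adjusted p = 0.000221 and 0.000176). The PDI11 matches LOC_Os01g23740 and LOC_Os05g06430, endoplasmic reticulum folding enzymes named here after their values were seen, were lower on both days (-1.19 and -0.78 for the first, -0.97 and -0.52 for the second). The thioredoxin domain protein TXND9 (LOC_Os08g15204) fell after 3 days (-0.57, adjusted p = 0.00111), and its 1-day call (0.24, adjusted p = 0.041) was lost without HHZ, P28 or H471 (adjusted p = 0.0686 to 0.214).

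The 8 members called higher after 1 day and lower after 3 days came from every class. They were the ferredoxin-thioredoxin reductase chain LOC_Os02g42570, thioredoxin-dependent peroxidase 2, thioredoxin X, TXND9, the glutaredoxin LOC_Os07g46570, the YLS8 match LOC_Os10g34520, and the superfamily members LOC_Os02g35900 and LOC_Os03g17600, named here after their values were seen. LOC_Os03g17600 had 86.4, 54.4 and 65.9 FPKM in the controls, 169, 183 and 176 after 1 day and 32.8, 37.1 and 26.6 after 3 days. LOC_Os07g46570 had 19.4, 20.3 and 19.9 FPKM in the controls, 39.1, 35.6 and 40.7 after 1 day and 6.73, 6.62 and 9.75 after 3 days. In both genes the 3 conditions were fully apart (1.37 and -1.06 for the first, 0.92 and -1.28 for the second). The splicing factor match went from 135 to 146 FPKM to 231 to 261 and then to 102 to 105 (0.79 and -0.46), although it is no redox enzyme.

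By size within each genotype, with no test, a similar number of members moved in the 3 lines. A log2 difference of at least 1 from the genotype's own control was reached upwards after 1 day by 14 members of the HHZ column, 15 of P28 and 14 of H471 (12.5%, 12.2% and 13.2% of all genes) and downwards by 9, 11 and 9 (13.1%, 14.9% and 13.4%). After 3 days the upward counts were 9, 8 and 9 (10.3%, 9.09% and 10.9%) and the downward counts 11, 8 and 10 (13.3%, 13.5% and 13.6%). In all 3 genotypes at once, 11 members passed upwards and 7 downwards after 1 day (8.81% and 8.88% of all genes), and 6 and 6 after 3 days (6.14% and 8.33%).

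Genotype differences were few beside the drought differences. The fit took the 3 conditions as replicates, and 3 of the 93 members were called higher in P28 than in HHZ (3.23%, beside 3.64% of all genes) and 0 lower (beside 3.0%, or 6.64% in either direction). An unadjusted p under 0.05 was found in 14 of the 93 members, beside 4147 of all 20568 genes. LOC_Os11g43520, a thioredoxin superfamily member, had 0.978, 2.09 and 7.14 FPKM in HHZ under control, 1-day and 3-day conditions, 5.22, 5.06 and 25.3 in P28, and 0.873, 2.37 and 11.4 in H471. P28 was the highest genotype in each condition (1.44 against HHZ, SE 0.20, adjusted p = 0.00756), and the gene also rose after 3 days across genotypes (2.28, SE 0.20, adjusted p = 0.000109). Its neighbours by locus number with the same description, LOC_Os11g43530, LOC_Os11g43550 and LOC_Os11g43580, did not exceed 0.497 FPKM, and reads could be split between such copies. The glutaredoxin LOC_Os01g27140 had 15.9, 9.75 and 15.1 FPKM in HHZ, 31.6, 32.9 and 26.3 in P28 and 25.0, 19.0 and 14.4 in H471, with P28 again highest throughout (1.12, SE 0.20, adjusted p = 0.0193). The M-type 4 match LOC_Os02g42700 had 34.4, 39.4 and 54.4 FPKM in HHZ, 55.0, 75.4 and 73.0 in P28 and 32.0, 44.4 and 51.5 in H471 (0.66, SE 0.10, adjusted p = 0.0111). All 3 genes lost their call without the 1-day columns (adjusted p = 0.0764 to 0.191), without the 3-day columns (adjusted p = 0.0581 to 0.13) and without the control columns (adjusted p = 0.0796 to 0.153). Without the H471 columns LOC_Os01g27140 (adjusted p = 0.0865) and LOC_Os02g42700 (adjusted p = 0.0815) lost it. Reads of P28 were aligned to the reference rice genome like the others, and the part of sequence differences between P28 and that reference in these values was not tested.

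Between H471 and HHZ no member was called by limma (0 of 93, beside 0.224% of all genes, or 46 genes, with 0.18% higher and 0.0438% lower). An unadjusted p under 0.05 was found in 7 of the 93, beside 1386 of all 20568 genes. The fit tests a difference averaged over the conditions, whereas the study compared pairs of samples with Cuffdiff, so its calls can differ from these. The largest difference was that of LOC_Os11g38040, a thioredoxin superfamily member, with 20.2, 19.0 and 16.3 FPKM in HHZ, 12.9, 17.2 and 14.0 in P28 and 11.1, 2.98 and 5.14 in H471 under control, 1-day and 3-day conditions. H471 was lowest in each condition, and under drought both parents stayed at 14.0 FPKM or more (-1.54 against HHZ, SE 0.33, unadjusted p = 0.0024, adjusted p = 0.264). This gene is held in the study's supplementary lists. By its locus number it lies between the first and last genes that the study lists for an introgressed segment on chromosome 11. TXND9 (LOC_Os08g15204) also lies in such a segment and had 29.8, 31.8 and 19.1 FPKM in HHZ, 35.2, 40.0 and 22.9 in P28 and 35.5, 48.8 and 25.0 in H471 (0.40, SE 0.08, unadjusted p = 0.0019, adjusted p = 0.237). Of the 93 members 13 lay in a segment by this measure (14.0%, beside 10.0% of all genes tested). Between H471 and P28, a comparison added after the data were seen, 2 members were lower in H471 (2.15%, beside 3.71%) and 0 higher (beside 3.01%, or 6.72% in either direction), LOC_Os11g43520 (-1.22, adjusted p = 0.0147) and LOC_Os02g42700 (-0.67, adjusted p = 0.0105). In that comparison 21 of the 93 members had an unadjusted p under 0.05, beside 4269 of all 20568 genes.

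By size within a condition, with no test, P28 exceeded HHZ by a log2 difference of at least 1 in 2 members under control conditions, 3 after 1 day and 2 after 3 days, and fell short of it in 0 (4.17%, 3.33% and 3.34% of all genes were higher and 3.09%, 3.43% and 2.9% lower). These were LOC_Os11g43520 and LOC_Os12g35330 in the controls, LOC_Os12g35330, LOC_Os01g27140 and the weakly expressed glutaredoxin LOC_Os05g05730 after 1 day, and LOC_Os02g40500 and LOC_Os11g43520 after 3 days. For H471 against HHZ the rule was met upwards by 0, 1 and 0 members (1.31%, 1.79% and 1.93% of all genes) and downwards by 0, 1 and 1 (1.15%, 1.62% and 1.47%). The glutaredoxin was the upward one, at 5.21 FPKM in H471 1d against 0.892 in HHZ 1d, and LOC_Os11g38040 was the downward one on both days.

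**Figure D5:**
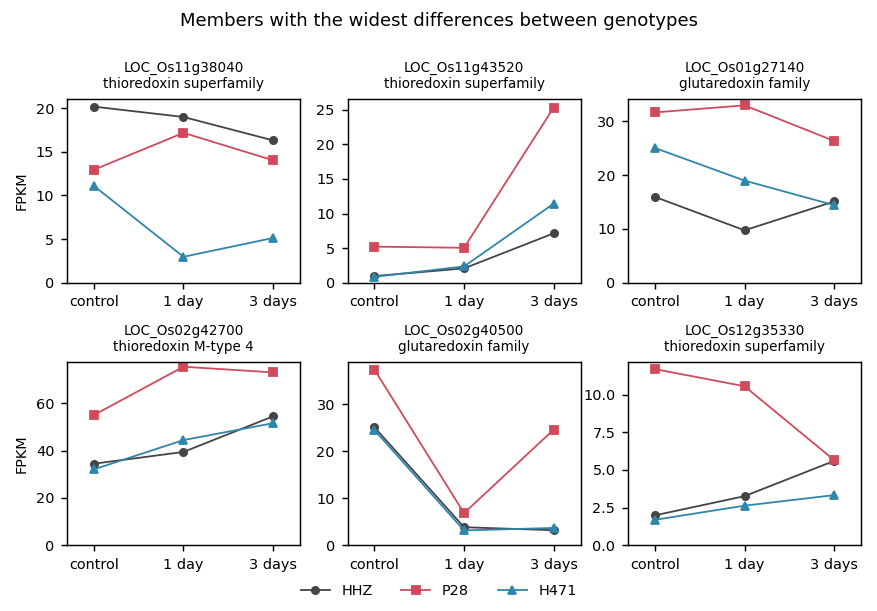
FPKM (linear axes from 0) in control, 1-day and 3-day columns of 6 members with wide differences between genotypes, with 1 line per genotype. P28 is the highest line of LOC_Os11g43520, LOC_Os01g27140 and LOC_Os02g42700 in each condition, H471 is the lowest line of LOC_Os11g38040, and P28 alone is high for LOC_Os02g40500 after 3 days at 24.6 FPKM.

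Partners of these proteins outside the 118 genes were described from lists made by annotation text, whose counts stand beside 27.4% of all genes higher and 30.8% lower after 1 day and 27.0% and 30.1% after 3 days. Of 10 repair genes that draw on thioredoxin (methionine sulfoxide reductases, glutathione peroxidases and sulfiredoxin), 5 rose and 3 fell after 1 day and 4 rose and 6 fell after 3 days, with medians of 0.14 and -0.37. Sulfiredoxin (LOC_Os06g07760), which restores 2-Cys peroxiredoxins that hydrogen peroxide has over-oxidised, rose from a mean of 67.4 FPKM over the 3 control columns to 117 after 1 day and 207 after 3 days (0.79, SE 0.11, adjusted p = 0.000687, and 1.60, SE 0.11, adjusted p = 3.43e-05). Its direction after 3 days was opposite to that of the abundant 2-Cys peroxiredoxin B match, LOC_Os02g33450. The minor match LOC_Os04g33970 was above its control after 3 days, though not called (0.37, 0.12 and 0.23 in HHZ, P28 and H471). Of 8 genes of glutathione synthesis and reduction, 1 rose and 4 fell after 1 day and 0 rose and 3 fell after 3 days, with medians of -0.50 and -0.17. Both matches to glutamate-cysteine ligase, the first enzyme of glutathione synthesis, fell after 1 day, LOC_Os05g03820 from a mean of 37.2 to 11.3 FPKM (-1.64, SE 0.11, adjusted p = 2.68e-05) and LOC_Os07g27790 from 38.8 to 18.8 (-1.0, SE 0.09, adjusted p = 0.000117). After 3 days their means were 44.3 and 33.2 FPKM, and neither was called against the control (limma, adjusted p = 0.115 and 0.09).

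Protein disulfide isomerases, which use thioredoxin domains to fold proteins in the endoplasmic reticulum, were lower after 1 day in 10 of 11 (0 higher) and lower after 3 days in 6 (2 higher), with medians of -0.56 and -0.25. LOC_Os11g09280, the most abundant of them, went from a mean of 565 FPKM to 129 and back to 498 (-2.13 after 1 day, SE 0.11, adjusted p = 7.02e-06). Of 9 tested genes for Calvin cycle enzymes and regulators under thioredoxin control, 6 rose and 2 fell after 1 day and 3 rose and 3 fell after 3 days, with medians of 1.28 and -0.01. Sedoheptulose-bisphosphatase (LOC_Os04g16680) had means of 369, 1125 and 134 FPKM, phosphoribulokinase (LOC_Os02g47020) 335, 1511 and 96.1, and rubisco activase (LOC_Os11g47970) 225, 8974 and 424 in control, 1-day and 3-day columns. The first and second of these were called higher after 1 day and lower after 3 days, as thioredoxin X was, whereas rubisco activase was above the control on both days. The rubisco small subunit (LOC_Os12g17600), a part of the carbon-fixing enzyme, had 2815, 3381 and 3750 FPKM in the controls, 3505, 4826 and 3268 after 1 day and 282, 445 and 219 after 3 days, and its part in the lower chloroplast members after 3 days was not tested. In leaf samples a fall can come from fewer cells of a type or from less RNA per cell, which cannot be told apart here.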

How the data were processed

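After removal of ribosomal RNA, 18 libraries of rice leaf RNA were sequenced from both fragment ends. According to the methods, the authors aligned reads with TopHat to the MSU rice genome and obtained the deposited FPKM with Cufflinks, including bias and multi-read correction, with the 2 libraries of each genotype and condition pooled in 1 of 9 columns. The sources used here state neither tool versions nor the use of strand nor the reads behind a value. All columns were mapped by matching the code in each header to the sample descriptions and titles.

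Members were found by annotation text. An FPKM of 1 in any column was required, so a member could enter through drought columns alone. LOC_Os07g44430, LOC_Os01g42960, LOC_Os05g11990, LOC_Os05g50990 and LOC_Os06g12190 did so. To each value 1 was added, and log2 values were fitted with limma 3.58.1 (R 4.3.3, with a trend) on genotype and condition. p-values were adjusted over all 20568 genes. In data simulated for 1 day against control over 20568 genes, 89% of log2 differences of 1 and 100% of differences of 2 were recovered, with 7 unchanged genes among 196 calls. The simulation gave all genes the same spread and no genotype differences. It changed only a small set of genes above a minimum mean level. These rates therefore check the fit and do not carry over to genes of low FPKM or wide spread in these data. A size rule of 1 (log2) served single columns. Python 3.11.15, numpy 2.4.6, pandas 2.3.3 and matplotlib 3.10.9 were used.

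Named genes were the 6 largest and 6 smallest differences per day and the 3 largest and 3 smallest per genotype comparison among members reaching 5 FPKM, the 8 most abundant, every peroxiredoxin and reductase, and 4 members in lists of the study. Members, lists and rule were chosen with earlier results of these data known. Classes were meant to follow the description alone, but 10 members were placed by symbol. No sequences or coordinates were used, because none of the member IDs matched the reference table.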

Additional observations from a re-analysis of the deposited data

Results flagged for a closer look

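The drought difference of the thioredoxin superfamily member LOC_Os12g35330 went opposite ways in the genotypes. Between control and 3 days its FPKM went from 1.99 to 5.60 in HHZ, from 11.7 to 5.65 in P28 and from 1.69 to 3.33 in H471, which are log2 differences (of FPKM + 1) of 1.14, -0.93 and 0.69. With 1 pooled value per genotype and condition the difference between genotypes was not tested. After 3 days HHZ and P28 were thus nearly level, whereas in the controls and after 1 day P28 (11.7 and 10.6) was above HHZ (1.99 and 3.26) and H471 (1.69 and 2.63). The gene next to it by locus number, LOC_Os12g35340, has the same description and lay between 3.62 and 8.71 FPKM, and reads could be split between them.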

How the results depend on the processing

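No paired analysis was possible because the deposited columns pool the 2 numbered libraries of each genotype and condition. The drought counts stayed within 1.5 times of the reported ones under each alternative run: 44 to 58 members after 1 day, 40 to 62 after 3 days and 46 to 60 between the days, with another added constant (0.1), no filter, median-ratio scaling, no trend, an adjusted p of 0.01, or a genotype or condition left out. Over all genes the same runs called 8942 to 12183, 8064 to 11843 and 6767 to 10403. H471 against HHZ gave 0 member calls in each run, but calls were rare over all genes too. There were 0 without the P28 columns, 0 without the 3-day columns, 1 without the 1-day columns and 16 to 77 in the other runs. A count of 0 members in these runs therefore says little about the members. P28 against HHZ gave 1 call without the H471 columns, 0 without the 1-day columns, 1 without the 3-day columns, 0 without the control columns and 1 at an adjusted p of 0.01. Over all genes these runs called 660, 337, 386, 518 and 593. The 1 call without the 3-day columns was none of the 3 reported genes but LOC_Os12g35330 (log2 difference 1.76, adjusted p = 0.0494). At a size rule of 0.5 HHZ had 45 members on the first day of drought and 47 later, P28 47 and 43, and H471 46 and 50. Between genotypes they were 11, 10 and 9 for P28 against HHZ and 8, 7 and 7 for H471 against HHZ in control, 1-day and 3-day columns. With 0.1 added and the size rule of 1, H471 against HHZ gave 2 members in the controls and 4 after 1 day. The shares of all genes under these alternative size rules were not computed, so these counts have no background beside them. Of 85 called differences of named members, 66 kept their call in each alternative run and 19 lost it in at least 1, and no called difference changed sign. In 12 cases a difference of a named member that was not called passed under an alternative. With 0.1 added, the 1-day difference of LOC_Os07g44430 became 4.73. Depth cannot be judged for genes of low FPKM, since the read number behind a value is unknown.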
